A study of Mus musculus with 12 samples.

Results

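The genes that encode the protein part of the mitochondrial ribosome were compared over 4 treatment groups of H9c2 cells, a cell line from embryonic heart tissue that is used as a model of cardiomyoblasts. The genes were chosen by name alone, as every protein-coding gene whose symbol is Mrpl or Mrps followed by a digit, which gave 78 of the 54345 genes in the table of expression values. Of these, 49 carry an Mrpl symbol (large subunit) and 29 an Mrps symbol (small subunit).

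All 12 libraries were made from H9c2(2-1) cells labelled as wild-type myoblasts, with 3 libraries in each group, and all treated cells were harvested after 6 h. The groups were untreated cells (Unt), cells given doxorubicin (DOX), cells given doxorubicin with dexrazoxane (D_DXZ) and cells given doxorubicin with magnesium hexacyanoferrate nanocatalysts (D_MgHCF), so that every treated group carries doxorubicin and no group received dexrazoxane or the nanocatalysts alone. Doxorubicin is an anthracycline chemotherapeutic that damages the heart, dexrazoxane is the clinical drug given to protect the heart against it, and the comparison of these groups asks how each agent alters the transcriptional response to doxorubicin. The doses given to the sequenced cells are not given in the sources used here. The samples are labelled as mouse and the table uses mouse gene identifiers and mouse build GRCm38, whereas the study describes H9c2 as a rat line. Nothing in the labels says that the 3 libraries of a group came from separate cultures, so the p-values below measure only the spread between these libraries.

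Values are FPKM (fragments scaled by gene length and library depth). A comparison of levels between genes takes it that their reads map equally well to the mouse build. For a line described as rat this was not tested. There were 16626514 to 19365119 reads on genes per library as recovered from the FPKM steps, of which 43567 to 69939 fell on the mitoribosomal genes together. The libraries differed in ways that touch every comparison below. D_MgHCF libraries had 23368 to 25456 genes above 0 against 18530 to 20660 in the other 9, and their 3 values spread widely for several members. The labelled cell type was only partly visible in its markers. Vim was at 93.4 to 1136 FPKM and Acta2 at 208 to 2032 over the 12 libraries, but the myogenic factors Myod1, Myf5 and Myog did not exceed 0.126 FPKM in any library. The other muscle markers examined were also low, with Des at 0.339 to 1.57 FPKM. Tagln reached at most 0.298, Tnnt2 0.970, Myh6 0.136 and Nkx2-5 0.321 FPKM. Of the markers of 4 other cell types, Ptprc, Epcam and Adipoq reached at most 0.241 FPKM, and the endothelial Pecam1 was at 0 to 0.106 FPKM in the other groups and at 0.131 to 0.932 in D_MgHCF. The cardiac transcription factor Gata4 was also highest in D_MgHCF, at 14.2 to 25.5 FPKM against 2.17 to 10.8. Their part in the results was not tested. In these bulk samples, fewer cells of a kind and less RNA per cell cannot be told apart.

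Mitochondria keep their own ribosomes, which translate the few proteins encoded by the mitochondrial genome, all of them subunits of the respiratory chain and ATP synthase. The ribosomal RNAs of these particles are transcribed inside the organelle, but each of their proteins is encoded in the nucleus, made in the cytosol and imported, so the assembly of a mitoribosome depends on a large set of unlinked nuclear genes. Some of the proteins have homologues in the bacterial ribosome and others are found only in mitochondria, and cardiac muscle, which relies on oxidative phosphorylation, needs the particle continuously.

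The members lie on 17 chromosomes, with 11 on chromosome 11, 8 on chromosome 17 and 7 on chromosome 6, and many share their start region with another gene. A protein-coding gene starts on the other strand within 1000 bases of 32 of the 78 members (41.0%), against 2375 of 22058 protein-coding genes of the annotation (10.8%). Such partners include Sars2, the mitochondrial seryl-tRNA synthetase, next to Mrps12, Twnk, the mitochondrial DNA helicase, next to Mrpl43, and the complex I subunits Ndufs6 and Ndufb5 next to Mrpl36 and Mrpl47. In 1 case both partners are members. Mrps11 (chr7:78783119-78792989, + strand) and Mrpl46 (chr7:78775236-78783531, - strand) start back to back and their annotated spans overlap. The upstream sequences of 4 loci on which results below turn were taken from the RefSeq promoters of GRCm38.p6 and are printed 5′ to 3′ on the strand of the named gene. For the shared start of Mrps11 and Mrpl46 this is chr7:78783090-78783118, the gap between their first protein-coding exons, and for the others a stretch before the RefSeq start, at chr10:95501950-95502199 (- strand) for Mrpl42, the member with the largest fall from DOX to D_MgHCF, at chr2:28467816-28468065 (+ strand) for Mrps2, one of the members with the largest falls in DOX, and at chr11:97041408-97041559 (+ strand) for Mrpl10, a stalk protein gene with a nuclear respiratory factor 1 (NRF1) motif. Capitals mark motif matches, as explained after the sequences.
Mrps11: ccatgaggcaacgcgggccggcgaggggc
Mrpl42: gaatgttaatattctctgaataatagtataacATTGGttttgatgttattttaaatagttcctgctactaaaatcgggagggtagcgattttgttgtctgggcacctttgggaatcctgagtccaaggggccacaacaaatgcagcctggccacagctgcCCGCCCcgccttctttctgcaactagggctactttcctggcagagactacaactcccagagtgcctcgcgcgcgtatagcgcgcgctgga
Mrps2: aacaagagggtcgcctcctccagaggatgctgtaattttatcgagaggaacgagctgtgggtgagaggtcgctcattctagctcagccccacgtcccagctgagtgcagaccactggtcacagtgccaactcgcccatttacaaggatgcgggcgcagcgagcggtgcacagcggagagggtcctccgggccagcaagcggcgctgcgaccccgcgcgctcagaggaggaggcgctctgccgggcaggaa
Mrpl10: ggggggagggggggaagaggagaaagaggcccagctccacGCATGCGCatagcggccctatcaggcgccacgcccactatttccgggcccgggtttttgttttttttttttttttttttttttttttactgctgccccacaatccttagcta
In the Mrpl42 sequence the capitals mark a CCAAT box read on the other strand (ATTGG) and an SP1 motif read on the other strand (CCGCCC), and in the Mrpl10 sequence they mark the NRF1 motif GCATGCGC. The sequences of Mrps2 and of the Mrps11 and Mrpl46 gap hold none of the motifs searched.

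A RefSeq promoter was found for 69 of the 78 members, and the 250 bases before the start were searched on both strands for 5 short motifs, none of which contains another. The NRF1 motif GCATGCGC, of a transcription factor of nuclear genes for mitochondrial proteins, occurred in 8 members (11.6%) against 3.47% of 16394 promoters. The ETS motif CCGGAAG, the site class of the GABP factor, occurred in 18 members (26.1%) against 10.5%. The YY1 motif AAGATGGC occurred in 4 members (5.80%) against 1.77%. The more common CCAAT box (CCAAT) was found in 25 members (36.2%) against 39.3% of all promoters, and the SP1 motif GGGCGG in 33 members (47.8%) against 47.5%. A match describes these letters only. By the result of DOX against Unt described below, the NRF1 motif was present in 3 of 30 members called higher with a promoter, 2 of 20 called lower and 3 of 18 not called, and the ETS motif in 6, 5 and 6 of them.

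Nearly the whole set was expressed in untreated cells. Of the 78 genes, 76 had a mean over the 12 libraries of at least 1 FPKM and 77 entered the test, which took genes above 0 in at least 3 libraries. Over the 76 members above 0 in Unt, the group mean FPKM ran from 1.42 to 83.1 with a median of 12.8. The highest were Mrpl28, a large subunit protein with a bacterial homologue, at 80.8, 81.5 and 87.1 FPKM in the 3 Unt libraries, Mrpl2 at 65.7, 59.2 and 68.8 and Mrpl14 at 59.1, 51.1 and 60.5. Each Unt library of Mrpl28 lay above each of Mrpl2, whereas the values of Mrpl2 and Mrpl14 overlapped. The lowest above 0 was Mrps23, at 1.76, 1.26 and 1.23 in Unt, 2.24, 1.3 and 0.997 in DOX, 0.794, 0.636 and 1.1 in D_DXZ and 0.793, 1.16 and 1.25 in D_MgHCF. Mrps10 held only 3 reads over all 12 libraries and Mrpl53 none. The part of mapping to the mouse build in this ranking was not tested. For Mrpl53, a count of 0 allows up to 3 reads, which is 0.149 to 0.328 FPKM in the single libraries (counting error only).

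The size of a change depends on how libraries are scaled, and the deposited FPKM already hold a scaling between libraries. The median of 11517 genes with a mean of at least 1 FPKM (the expressed genes) moved by 0.05 on the log2 scale from Unt to DOX in the deposited values. It moved by -1.18 when the same values were rescaled to 1 common sum in every library (TPM) and by -0.69 when they were divided by the summed reads. From DOX to D_MgHCF the shifts of this median were -0.09 as deposited, 0.99 as TPM and 0.67 over summed reads. For each comparison the change of a member was therefore also read relative to this median, under 4 scalings (deposited FPKM, TPM, summed reads and quantile normalisation), and a member is described below as above or below the median expressed gene only where all 4 gave the same side. Deposited FPKM, TPM and summed reads differ by 1 factor per library. Relative to the median they therefore nearly agree by construction, apart from the 1 added to each value before taking log2. Quantile normalisation is the only other kind of scaling among the 4. The expressed genes split evenly around their own median under each scaling. How many of them kept the same side under all 4 was not counted. The counts of members above, below or changing side given below therefore lack that background, and whether they are unusual was not tested.

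The first comparison, DOX against Unt, asks what 6 h of doxorubicin did. The mitoribosomal genes did not move as a block. Of the 77 tested, 34 were higher and 23 lower in DOX at a Benjamini-Hochberg adjusted p under 0.05 over all 25044 genes (limma), and 20 did not pass (log2 changes of -0.40 to 0.35). Over all genes tested, 18.6% were called higher and 19.9% lower, and among the expressed genes 36.7% and 33.3%. The split between higher and lower turned with the scaling, at 4 against 56 as TPM, 10 against 44 over summed reads and 17 against 17 after quantile normalisation. Of all genes tested, 4.44% were higher and 40.8% lower as TPM, 8.29% and 33.2% over summed reads and 16.7% and 17.3% after quantile normalisation. Relative to the median expressed gene, 30 members lay above and 27 below under all 4 scalings, and 20 changed side. Those above included 28 of the 34 called higher, and those below 22 of the 23 called lower. The log2 changes ran from -2.47 to 2.01 with a median of 0.22.

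Among the members that rose, Mrps21, a small subunit protein with a bacterial homologue, led. Its FPKM was 35.4, 38.8 and 40.2 in Unt, 132, 174 and 168 in DOX, 111, 132 and 133 in D_DXZ and 60.7, 47.5 and 37.3 in D_MgHCF. Every DOX library lay above every Unt library, at 4.14 times the Unt mean (log2 change 2.01, SE 0.17, adjusted p = 1.41e-05, limma), while the D_MgHCF values overlapped those of Unt. Mrpl42, a large subunit protein without a bacterial homologue, was at 11.4, 11 and 10.1 in Unt, 30, 42.2 and 42.1 in DOX, 27.3, 31.2 and 38.5 in D_DXZ and 9.54, 7.11 and 4.65 in D_MgHCF. Its DOX libraries were all above Unt (log2 change 1.71, SE 0.22, adjusted p = 0.000125) and its D_MgHCF libraries all below, without passing the test (adjusted p = 0.0541). Mrps33, a mitochondria-specific small subunit protein, was at 9.47, 11.3 and 10.8 in Unt, 27.5, 38.5 and 39.3 in DOX, 26.1, 31.7 and 30.3 in D_DXZ and 11.4, 7.31 and 5.25 in D_MgHCF. It rose in DOX with no overlap (log2 change 1.64, SE 0.22, adjusted p = 0.000188), and its D_MgHCF libraries straddled those of Unt. Mrpl28, the highest member in Unt, reached 231, 276 and 276 in DOX (log2 change 1.63, SE 0.11, adjusted p = 1.09e-05). All of these 4 genes lay above the median expressed gene under the 4 scalings, but the rise of Mrps33 was not called as TPM (log2 change 0.35, adjusted p = 0.0827) and that of Mrpl28 not after quantile normalisation. The other members called higher were 20 large subunit genes (Mrpl13, Mrpl34, Mrpl27, Mrpl52, Mrpl33, Mrpl16, Mrpl54, Mrpl30, Mrpl23, Mrpl10, Mrpl36, Mrpl4, Mrpl20, Mrpl18, Mrpl11, Mrpl3, Mrpl48, Mrpl39, Mrpl49 and Mrpl14) and 10 small subunit genes (Mrps14, Mrps15, Mrps36, Mrps6, Mrps28, Mrps25, Mrps24, Mrps11, Mrps12 and Mrps9).

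The largest falls in DOX exceeded the largest rises, with Mrpl44 at 0.105 of its Unt mean. Mrpl44, a large subunit protein with a ribonuclease III-like fold, was at 9.77, 10.6 and 11.4 in Unt, 1.52, 1.04 and 0.789 in DOX, 3.77, 2.32 and 0.957 in D_DXZ and 2.98, 5.19 and 8.53 in D_MgHCF. All DOX libraries were below all Unt libraries (log2 change -2.47, SE 0.35, adjusted p = 0.000237, limma), and the 3 D_MgHCF libraries were spread between the levels of these groups (D_MgHCF against Unt not called, adjusted p = 0.0621). Mrps2, the homologue of bacterial protein S2, was at 10.3, 10.8 and 11.9 in Unt, 2.19, 1.15 and 1.24 in DOX, 3.99, 2.22 and 1.39 in D_DXZ and 2.87, 5.5 and 9.66 in D_MgHCF (log2 change -2.27, SE 0.36, adjusted p = 0.000461). Its D_MgHCF libraries also lay between DOX and Unt, with replicate 3 nearest to Unt. Mrpl50, another mitochondria-specific large subunit protein, was at 17, 16.8 and 15.1 in Unt, 3.68, 4.76 and 4.91 in DOX, 7.53, 5.85 and 5.35 in D_DXZ and 5.97, 8.92 and 7.57 in D_MgHCF (log2 change -1.67, SE 0.16, adjusted p = 2.11e-05), and no DOX or D_MgHCF library reached the Unt range. The other members called lower were 12 large subunit genes (Mrpl46, Mrpl1, Mrpl43, Mrpl47, Mrpl24, Mrpl2, Mrpl19, Mrpl55, Mrpl45, Mrpl15, Mrpl35 and Mrpl32) and 8 small subunit genes (Mrps31, Mrps22, Mrps26, Mrps18b, Mrps16, Mrps35, Mrps18a and Mrps30). Of the 23, only Mrpl32 changed side of the median expressed gene with the scaling. Without Unt replicate 3 the number called lower was 15, beside 17.9% of all genes tested. Without other single libraries it was up to 27, beside 23.6% (without D_MgHCF replicate 3).

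**Figure D1:**
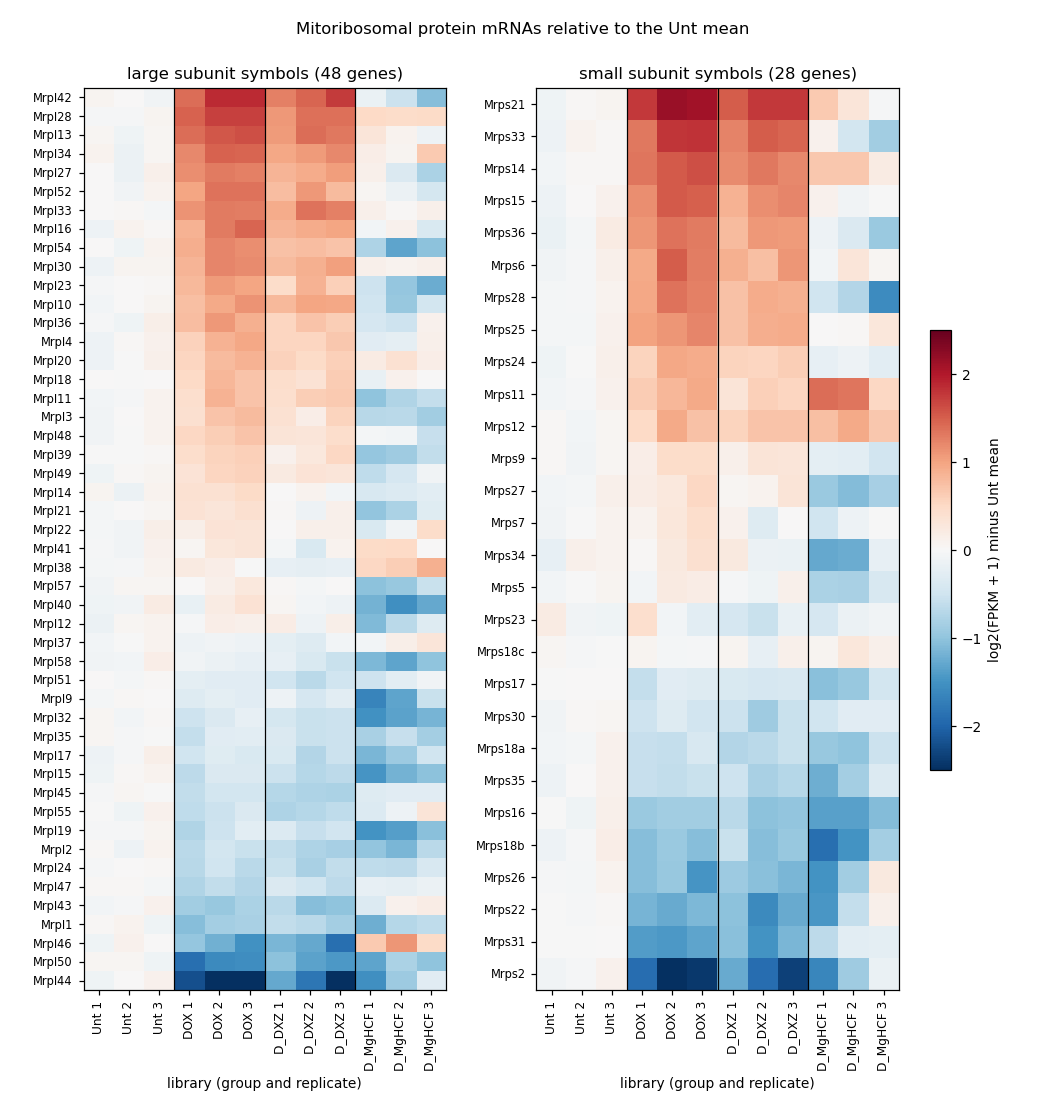
Heat map of log2(FPKM + 1) minus the Unt mean for the 48 Mrpl and 28 Mrps genes with a mean of at least 1 FPKM, in each of the 12 libraries (columns), with genes (rows) sorted by their change in DOX. The DOX and D_DXZ columns hold both colours, from Mrps21 and Mrpl42 at the raised end to Mrpl44 and Mrps2 at the lowered end, and the D_MgHCF columns are mostly on the lowered side.

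With dexrazoxane added to doxorubicin, members again lay on both sides of Unt. In D_DXZ against Unt, 27 members were called higher and 26 lower, where 15.9% and 18% of all genes tested and 31.9% and 31.5% of the expressed genes were called (limma), and the median log2 change was 0.0032. Under TPM the numbers were 1 and 57, over summed reads 8 and 46, and after quantile normalisation 16 and 20. The shares of all genes tested were 3.65% and 40.3% as TPM, 7.64% and 31.7% over summed reads and 14.0% and 14.6% after quantile normalisation. Relative to the median expressed gene, 31 members lay above and 34 below under all 4 scalings. Mrps21 (log2 change 1.69, adjusted p = 7.67e-05), Mrpl42 (log2 change 1.48, adjusted p = 0.000493) and Mrps33 (log2 change 1.40, adjusted p = 0.000756) had the largest rises, of which those of Mrpl42 (log2 change 0.37, adjusted p = 0.0793) and Mrps33 (log2 change 0.29, adjusted p = 0.163) were not called as TPM. The largest falls were those of Mrpl44 (log2 change -1.88, adjusted p = 0.00184), Mrps2 (log2 change -1.83, adjusted p = 0.00243) and Mrpl46, a large subunit protein with a Nudix-like fold (log2 change -1.43, adjusted p = 0.000696). This comparison shares its 3 Unt libraries with the one before it, so the likeness of the lists is not independent evidence. Compared directly, D_DXZ and DOX differed in 0 members and 0 genes overall at the adjusted threshold (0% in either direction, limma), and voom on the recovered reads also called 0. At an unadjusted p under 0.05, 1 member was higher and 11 lower in D_DXZ (1.3% and 14.3%), beside 1143 and 1245 of all genes tested (4.56% and 4.97%). Without overlap between libraries, 1 member was higher and 21 lower, beside 1919 and 2165 of the 25044 genes. The median log2 change was -0.19 over members and -0.08 over the expressed genes. The absence of calls therefore does not show that the groups were alike. The D_DXZ values of Mrpl44 ran from 0.957 to 3.77 and those of Mrps2 from 1.39 to 3.99, and both ranges overlapped DOX.

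**Figure D2:**
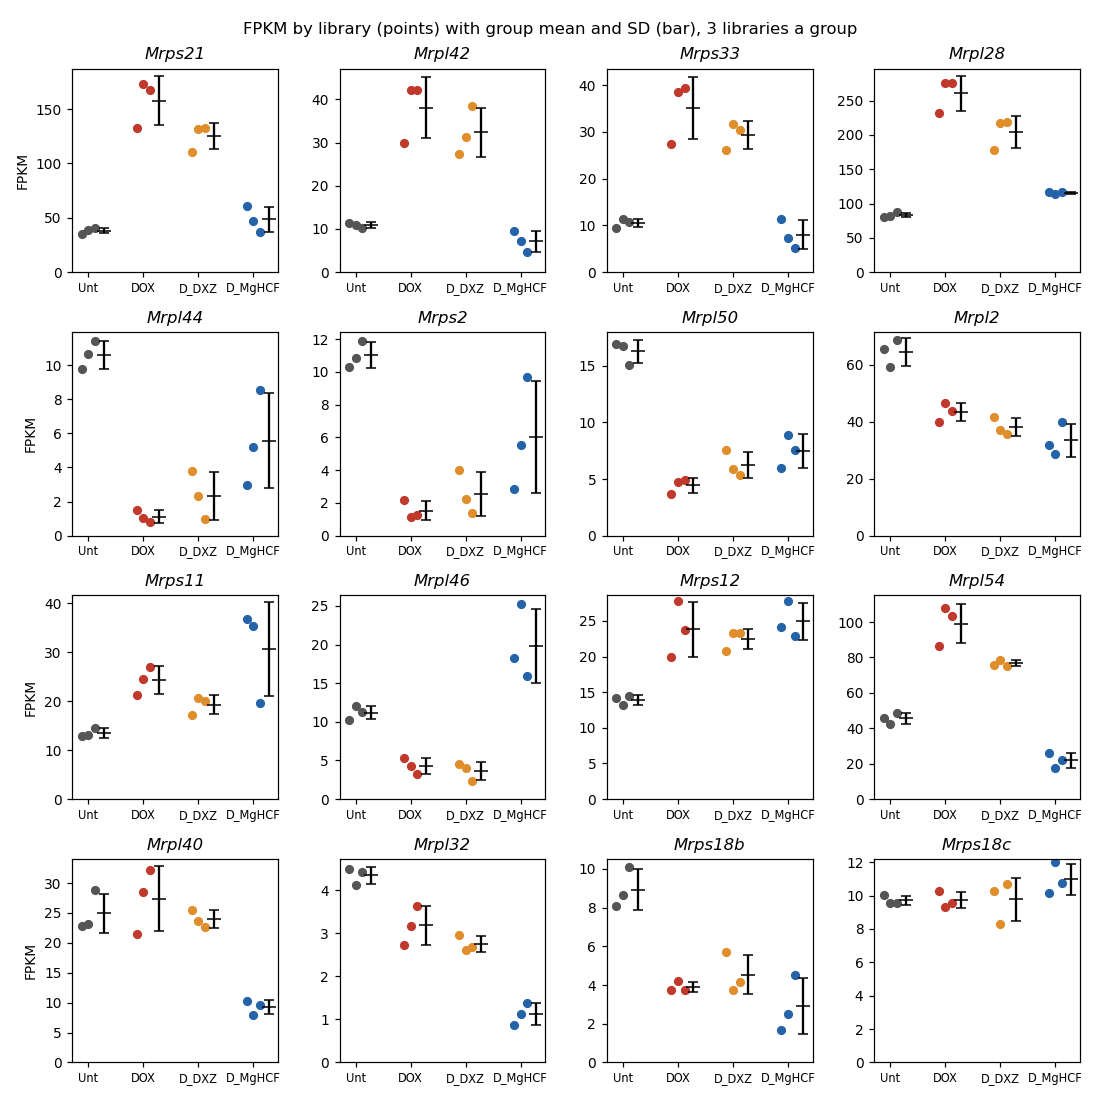
FPKM of 16 members (panels, each with its own axis from 0) by treatment group. Points are the single libraries, bars the mean ± SD over 3 libraries. Mrps21, Mrpl42, Mrps33 and Mrpl54 stand high in DOX and D_DXZ, Mrpl44, Mrps2 and Mrpl50 low, and Mrpl46 is highest in D_MgHCF.

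The nanocatalyst group differed from Unt mainly by lower values. In D_MgHCF against Unt, 34 members were called lower and 6 higher, and 37 did not pass, while 15.7% of all genes tested were called lower and 24.3% higher (limma). Among the expressed genes 29.0% were lower and 22.5% higher. This direction did not turn with the scaling, with 41 lower and 5 higher as TPM, 35 and 7 over summed reads and 33 and 6 after quantile normalisation. Of all genes tested, 19.2% were lower and 26.6% higher as TPM, 16.5% and 29.3% over summed reads and 18.5% and 17.0% after quantile normalisation. Relative to the median expressed gene, 54 members lay below and 23 above under all 4 scalings, and none changed side. The share of expressed genes that kept their side was not counted, so whether these numbers are unusual was not tested. The median log2 change was -0.38 over the 77 members and -0.08 over the expressed genes.

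The largest falls came in genes with different histories in DOX. Mrps18b, a paralogue of the bacterial S18 family, was at 8.07, 8.65 and 10.1 in Unt, 3.72, 4.22 and 3.77 in DOX, 5.69, 3.76 and 4.16 in D_DXZ and 1.69, 2.52 and 4.52 in D_MgHCF, so that DOX and D_MgHCF were both below Unt without overlap (log2 change -1.41, SE 0.23, adjusted p = 0.00115, limma). Mrpl32, a zinc-binding protein of the large subunit that is matured inside mitochondria by the m-AAA protease, was at 4.5, 4.12 and 4.43 in Unt, 2.74, 3.18 and 3.64 in DOX, 2.96, 2.62 and 2.68 in D_DXZ and 0.879, 1.12 and 1.37 in D_MgHCF. Its D_MgHCF libraries were below those of all other groups (log2 change -1.34, SE 0.13, adjusted p = 6.07e-05), as were those of Mrpl40. Mrpl40, a mitochondria-specific large subunit protein, was at 22.8, 23.2 and 28.8 in Unt, 21.5, 28.6 and 32.1 in DOX, 25.6, 23.6 and 22.6 in D_DXZ and 10.3, 7.9 and 9.63 in D_MgHCF. In the deposited scaling it was not called in DOX (log2 change 0.12, adjusted p = 0.653) and fell in D_MgHCF (log2 change -1.33, SE 0.15, adjusted p = 0.000146). Under the other scalings Mrpl40 was called lower in DOX. The log2 changes were -1.22 as TPM (adjusted p = 5.17e-05), -0.79 over summed reads (0.000535) and -0.54 after quantile normalisation (0.0121). Mrpl32 and Mrps18b have near-identical copies elsewhere in the genome (Gm6578 and Gm13552), between which the counting could have split reads. The other members called lower were Mrpl19, Mrpl15, Mrpl9, Mrpl58, Mrpl50, Mrpl54, Mrpl2, Mrpl23, Mrpl1, Mrpl17, Mrpl57, Mrpl39, Mrpl11, Mrpl35, Mrpl3, Mrpl12, Mrpl21, Mrpl10, Mrpl24, Mrpl49, Mrpl14 and Mrpl45 of the large subunit and Mrps16, Mrps27, Mrps28, Mrps34, Mrps18a, Mrps17, Mrps35, Mrps5 and Mrps9 of the small.

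The 6 members that rose in D_MgHCF were Mrps11, Mrps12, Mrpl46, Mrps14, Mrpl38 and Mrpl28, and all 6 lay above the median expressed gene under the 4 scalings. Mrps11, the homologue of bacterial S11, was at 12.8, 13.1 and 14.5 in Unt, 21.3, 24.5 and 27 in DOX, 17.1, 20.7 and 20 in D_DXZ and 36.8, 35.4 and 19.6 in D_MgHCF. Every D_MgHCF library lay above every Unt library (log2 change 1.08, SE 0.21, adjusted p = 0.00253, limma), with replicate 3 well below the other two. Mrps12, the homologue of bacterial S12 at the decoding site, was at 14.1, 13.2 and 14.4 in Unt, 20, 27.7 and 23.8 in DOX, 20.8, 23.3 and 23.3 in D_DXZ and 24.1, 27.8 and 22.9 in D_MgHCF. Its D_MgHCF libraries were above Unt (log2 change 0.80, SE 0.12, adjusted p = 0.000629) and overlapped those of DOX and D_DXZ, and its change from Unt to DOX (log2 change 0.72, adjusted p = 0.000584) was negative as TPM (-0.59). Mrpl38 and Mrps14, named after their values were seen, completed this group with Mrpl28. Mrpl38, a mitochondria-specific large subunit protein, was at 23.3, 23.7 and 25.9 in Unt, 28.6, 27.2 and 24.2 in DOX, 21.1, 20.5 and 20.9 in D_DXZ and 35.3, 37.7 and 45.7 in D_MgHCF, with D_MgHCF above all other groups (log2 change 0.67, adjusted p = 0.000681). Mrps14, the homologue of bacterial S14, was at 9.64, 10.4 and 10.4 in Unt, 27, 31.1 and 32.9 in DOX, 24.3, 26.8 and 24.5 in D_DXZ and 16.8, 16.8 and 11.9 in D_MgHCF, so that D_MgHCF lay between Unt and DOX without overlap (log2 change 0.52, adjusted p = 0.00934).

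Mrpl46, which starts next to Mrps11 on the other strand, was at 10.3, 12 and 11.3 in Unt, 5.26, 4.3 and 3.24 in DOX, 4.55, 4.04 and 2.28 in D_DXZ and 18.2, 25.2 and 16 in D_MgHCF. It was lowest in DOX and D_DXZ and highest in D_MgHCF, with no overlap between Unt and any of the other groups. Its rise over Unt (log2 change 0.75, SE 0.23, adjusted p = 0.025, limma) lost the call without any 1 of the Unt libraries or without D_MgHCF replicate 2 (adjusted p = 0.0503 to 0.0916). From Unt to DOX the neighbours moved in opposite directions, Mrps11 upward (log2 change 0.80, adjusted p = 0.00944) and Mrpl46 downward (log2 change -1.23, adjusted p = 0.0013), although the change of Mrps11 was -0.51 as TPM. The library kit's strand setting is not given in the sources used here, and reads in the overlap of their spans cannot be told apart.

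**Figure D3:**
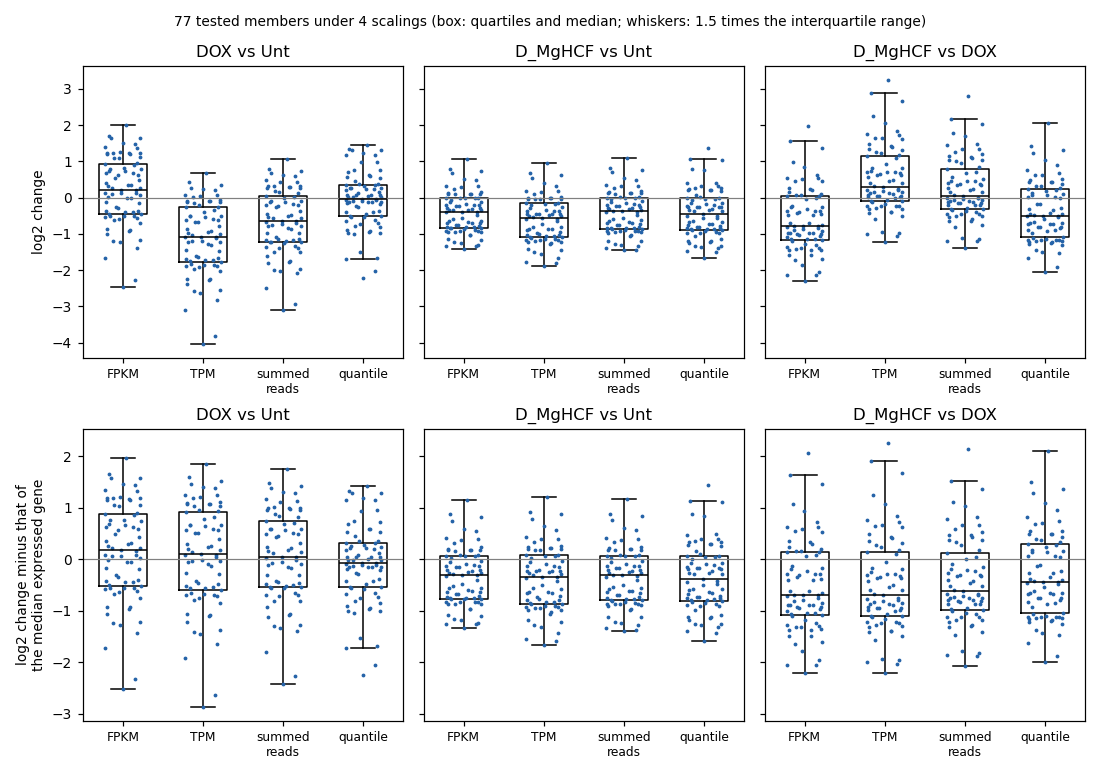
Log2 changes of the 77 tested members (points) in DOX against Unt, D_MgHCF against Unt and D_MgHCF against DOX under 4 scalings of the libraries. The upper row gives the changes themselves and the lower row the changes minus that of the median expressed gene. In the upper row the cloud for DOX against Unt slides from around 0 to mostly below 0 as TPM, whereas in the lower row the 4 clouds of each comparison lie at similar heights, and D_MgHCF against Unt stays mostly below 0 in both.

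Against DOX, the question of what the nanocatalysts add, 50 members were lower in D_MgHCF and 10 higher, with 20.1% and 31.4% of all genes tested called lower and higher (limma). Among the expressed genes 40.1% were lower and 33.5% higher. Under TPM the split turned to 10 lower and 32 higher (13% and 41.6% of members) and over summed reads to 20 and 27 (26% and 35.1%), while it was 42 and 13 after quantile normalisation. Of all genes tested, 6.75% were lower and 53.9% higher as TPM, 9.59% and 49.4% over summed reads and 19.6% and 18.5% after quantile normalisation. Relative to the median expressed gene, 46 members were below and 19 above under all 4 scalings. Against D_DXZ, 46 members were lower and 11 higher, beside 19% and 29.4% of all genes and 38.0% and 30.4% of the expressed genes. As TPM the split was 9 lower and 34 higher, and over summed reads 18 and 26. The shares of all genes tested were 6.23% lower and 51.1% higher as TPM and 9.51% and 45.6% over summed reads. Relative to the median expressed gene 45 were below and 21 above under all 4 scalings.

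The largest falls from DOX to D_MgHCF were those of Mrpl42 (log2 change -2.30, SE 0.22, adjusted p = 1.94e-05, limma), Mrpl54 (log2 change -2.14, SE 0.13, adjusted p = 3.06e-06) and Mrps28 (log2 change -2.13, SE 0.23, adjusted p = 4.01e-05). Mrpl54, a mitochondria-specific large subunit protein, was at 45.9, 42.2 and 48.5 in Unt, 86.5, 108 and 103 in DOX, 75.9, 78.8 and 75.4 in D_DXZ and 26.1, 17.7 and 22 in D_MgHCF. Mrps28, a small subunit protein, was at 22.2, 22.4 and 24.5 in Unt, 45.8, 60.7 and 56.4 in DOX, 38.8, 44.8 and 43.5 in D_DXZ and 16.1, 13.4 and 7.02 in D_MgHCF. In both genes the groups followed the order DOX, D_DXZ, Unt and D_MgHCF without overlap in FPKM. As TPM, however, the changes from Unt to DOX were -0.25 for Mrpl54 and -0.14 for Mrps28, whereas those from DOX to D_MgHCF stayed negative under every scaling (-0.96 for Mrpl54 as TPM). The 10 members higher in D_MgHCF than in DOX were Mrpl46, Mrpl44, Mrpl43, Mrpl50, Mrpl38, Mrpl47, Mrpl55, Mrpl45, Mrps2 and Mrps31. Mrpl46 had the largest rise (log2 change 1.97, SE 0.23, adjusted p = 5.48e-05), followed by Mrpl44 (log2 change 1.56, SE 0.35, adjusted p = 0.00395) and Mrps2 (log2 change 1.38, SE 0.36, adjusted p = 0.00874). In Mrpl44 and Mrps2 the D_MgHCF libraries were all above DOX but far apart, at 2.98, 5.19 and 8.53 and 2.87, 5.5 and 9.66 FPKM, with the value nearest to Unt in replicate 3. Without D_MgHCF replicate 3, 54 members were lower and 10 higher than in DOX, beside 21.9% and 37.8% of all genes tested.

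Among small subunit proteins with bacterial homologues, Mrps7 and Mrps5 were not called in DOX against Unt in the deposited scaling, where their changes as TPM were -1.07 and -1.19. Mrps7, the homologue of S7 that nucleates the head, was at 22.8, 23.9 and 25.9 in Unt, 25.8, 29.5 and 33.2 in DOX, 26.2, 19.2 and 24.4 in D_DXZ and 16.8, 22 and 23.9 in D_MgHCF. It was also not called in D_MgHCF against Unt. From DOX to D_MgHCF it was lower in the deposited scaling (log2 change -0.49, adjusted p = 0.0217), against 0.70 as TPM (adjusted p = 0.0181), 0.45 over summed reads and 0.13 after quantile normalisation, and the call was lost without DOX replicate 2 or 3 or D_MgHCF replicate 1 (adjusted p = 0.0553 to 0.0833). Mrps5, the homologue of S5, was at 7.45, 7.9 and 8.41 in Unt, 7.49, 9.44 and 9.13 in DOX, 7.78, 7.28 and 8.77 in D_DXZ and 4.13, 4.11 and 5.75 in D_MgHCF, with overlapping Unt and DOX libraries and lower D_MgHCF libraries (log2 change -0.67, adjusted p = 0.00312).

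Of the large subunit proteins that line the peptidyl transferase centre, Mrpl2 fell in every treated group and Mrpl3 moved both ways. Mrpl2 was at 65.7, 59.2 and 68.8 in Unt, 40, 46.6 and 43.7 in DOX, 41.5, 37.2 and 35.7 in D_DXZ and 31.8, 28.7 and 39.9 in D_MgHCF, with all treated libraries below all Unt libraries (log2 change -0.56, adjusted p = 0.00369 in DOX and log2 change -0.94, adjusted p = 0.000304 in D_MgHCF, limma). Mrpl3 was at 9.37, 10.1 and 10.7 in Unt, 13.7, 17.2 and 18.2 in DOX, 13.3, 11.4 and 15.2 in D_DXZ and 5.87, 5.91 and 5.04 in D_MgHCF, above Unt in DOX (log2 change 0.64, adjusted p = 0.00229, negative as TPM and over summed reads) and below it in D_MgHCF (log2 change -0.75, adjusted p = 0.00145).

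The stalk that recruits translation factors is built on Mrpl10, which anchors it, and Mrpl12. Mrpl10 was at 26.5, 28.1 and 29.4 in Unt, 47.7, 54.7 and 62.2 in DOX, 49.6, 56.5 and 55.5 in D_DXZ and 19.5, 14 and 20 in D_MgHCF, so that DOX lay above Unt (log2 change 0.94, adjusted p = 0.000303, negative as TPM) and D_MgHCF below it (log2 change -0.64, adjusted p = 0.00519). Mrpl12 was at 28.2, 32.3 and 33.2 in Unt, 30.5, 34.8 and 34.1 in DOX, 35.7, 28.6 and 34.5 in D_DXZ and 14, 19.2 and 24.6 in D_MgHCF. In the deposited scaling its DOX libraries overlapped Unt and its D_MgHCF libraries were all lower (log2 change -0.70, adjusted p = 0.00948). Under the other scalings Mrpl12 was called lower in DOX as well. Its log2 changes there were -1.27 as TPM (adjusted p = 0.00155), -0.84 over summed reads (0.00756) and -0.72 after quantile normalisation (0.0157, limma). Mrpl58, a peptidyl-tRNA hydrolase built into the large subunit that frees peptides from stalled ribosomes, was at 8.02, 8.03 and 9.63 in Unt, 7.95, 7.58 and 7.32 in DOX, 7.23, 6.32 and 5.46 in D_DXZ and 3.36, 2.81 and 3.77 in D_MgHCF. In the deposited scaling it was not called in DOX and fell in D_MgHCF with no overlap (log2 change -1.15, SE 0.12, adjusted p = 0.000103, limma). As TPM (log2 change -1.46, adjusted p = 0.000133) and over summed reads (-0.99, adjusted p = 0.00047) Mrpl58 was also called lower in DOX. Its change from DOX to D_MgHCF was 0.0074 as TPM and -0.20 over summed reads. Mrpl41, at 21.5, 20.4 and 23.7 in Unt, 22.6, 26.9 and 27.5 in DOX, 21, 16.6 and 23.1 in D_DXZ and 31, 31.3 and 22 in D_MgHCF, passed the test in the deposited scaling neither in DOX nor in D_MgHCF against Unt, and without D_MgHCF replicate 3 the latter was called higher (adjusted p = 0.0121). In DOX against Unt it was called lower as TPM (log2 change -1.12, adjusted p = 0.000105) and over summed reads (-0.69, adjusted p = 0.00345, limma).

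Of the 3 paralogues of bacterial protein S18, Mrps18a and Mrps18b were called lower than Unt in all treated groups in the deposited scaling, and Mrps18c was not. Mrps18c was at 10, 9.54 and 9.58 in Unt, 10.3, 9.34 and 9.56 in DOX, 10.3, 8.3 and 10.7 in D_DXZ and 10.2, 12 and 10.8 in D_MgHCF and passed the test in none of the 6 comparisons in that scaling. In DOX against Unt it was called lower as TPM (log2 change -1.31, adjusted p = 0.000145) and over summed reads (-0.86, adjusted p = 0.000744, limma). Mrps18a, which sits in the large subunit despite its symbol, was at 10, 10.1 and 11.4 in Unt, 6.66, 6.59 and 7.71 in DOX, 5.94, 6.18 and 6.84 in D_DXZ and 4.94, 4.75 and 6.87 in D_MgHCF, with every treated library below Unt (log2 change -0.53, adjusted p = 0.00699 in DOX and log2 change -0.83, adjusted p = 0.000764 in D_MgHCF, limma).  Among proteins found only in mitochondria, Mrps27, a pentatricopeptide repeat protein of the small subunit, was at 12.4, 12.5 and 14.3 in Unt, 15, 15.8 and 19 in DOX, 13.6, 14 and 16.7 in D_DXZ and 6.41, 5.65 and 6.85 in D_MgHCF and fell in D_MgHCF (log2 change -0.95, adjusted p = 0.000226). Mrps34 was at 8.67, 11.1 and 10.9 in Unt, 10.4, 12.2 and 13.7 in DOX, 12.2, 9.06 and 8.92 in D_DXZ and 3.6, 3.75 and 8.69 in D_MgHCF. Its D_MgHCF replicate 3 overlapped Unt, and the call (log2 change -0.91, adjusted p = 0.0198) was lost without Unt replicate 2 or 3 or D_MgHCF replicate 1 or 2 (adjusted p = 0.0603 to 0.0728).

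Beside these, 2 members with an Mrps symbol are not small subunit proteins in the assembled ribosome. Mrps30 is part of the large subunit and was at 3.51, 3.9 and 3.99 in Unt, 2.35, 2.83 and 2.45 in DOX, 2.29, 1.59 and 2.28 in D_DXZ and 2.41, 2.96 and 2.92 in D_MgHCF. It was lower in DOX (log2 change -0.44, adjusted p = 0.0218, limma), a call that was lost without Unt replicate 2 or 3 or DOX replicate 1 or 3 (adjusted p = 0.0671 to 0.0781). In D_MgHCF it was not called, and without D_DXZ replicate 2 or D_MgHCF replicate 3 it was (adjusted p = 0.0426 and 0.0435). Mrps36 belongs to the 2-oxoglutarate dehydrogenase complex of the citric acid cycle and was at 16, 17.3 and 20.9 in Unt, 39.6, 47.5 and 45.6 in DOX, 31.9, 39.2 and 38.4 in D_DXZ and 16.3, 13.7 and 8.99 in D_MgHCF. It rose in DOX (log2 change 1.25, SE 0.19, adjusted p = 0.000326, limma), although its change was -0.07 as TPM, and fell from DOX to D_MgHCF (log2 change -1.73, adjusted p = 3.84e-05).

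Large and small subunit genes were also counted separately, by symbol. The shares over all genes tested are those given above for each comparison. In DOX against Unt, 22 of 48 large subunit genes were called higher and 14 lower, and 12 and 9 of 29 small subunit genes, with median log2 changes of 0.24 and 0.22. In D_MgHCF against Unt, 3 large subunit genes were higher and 24 lower, and 3 and 10 small subunit genes, with medians of -0.36 and -0.39. In D_MgHCF against DOX, 34 large and 16 small subunit genes were lower, with medians of -0.86 and -0.42. As TPM these last medians turned to 0.20 and 0.57, and those of DOX against Unt to -1.10 and -1.04, while in D_MgHCF against Unt both medians stayed negative under each of the 4 scalings.

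The balance of the subunits was also read in each library, as the mean log2(FPKM + 1) of the large subunit genes minus that of the small. It was 0.586, 0.562 and 0.551 in Unt, 0.574, 0.603 and 0.618 in DOX, 0.570, 0.616 and 0.551 in D_DXZ and 0.515, 0.464 and 0.486 in D_MgHCF. The DOX and D_DXZ libraries overlapped those of Unt, and all D_MgHCF libraries lay below the other 9. From Unt to D_MgHCF the mean difference changed by -0.078 against a pooled SD of 0.0223 (n = 3), and from Unt to DOX by 0.0322 against 0.0203. These are descriptions with no test. The change in D_MgHCF kept its sign with a pseudocount of 0.1 and under each scaling, but with the median over genes in place of the mean it was 0.43.

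**Figure D4:**
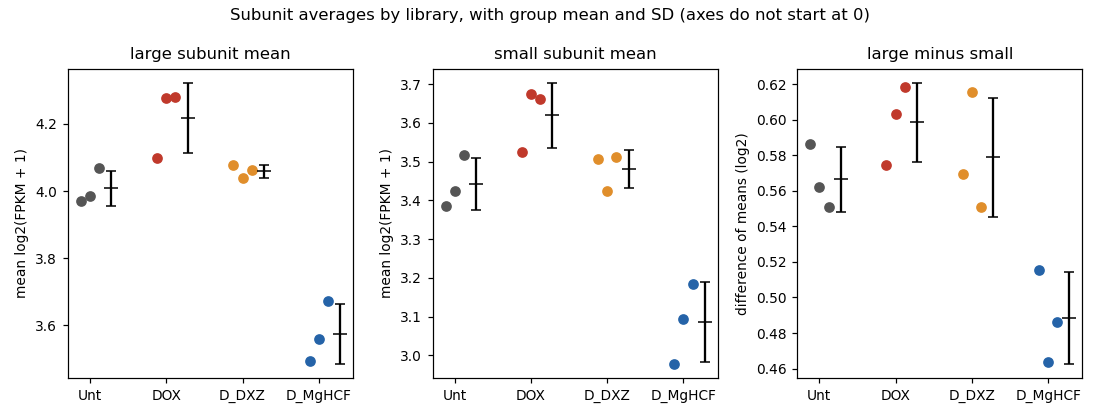
Mean log2(FPKM + 1) of the large subunit genes, of the small subunit genes and their difference in each library (points) with the mean ± SD over 3 libraries (bars), by group; the axes do not start at 0. The large subunit mean was 4.01 ± 0.05 in Unt, 4.22 ± 0.10 in DOX, 4.06 ± 0.02 in D_DXZ and 3.57 ± 0.09 in D_MgHCF, and the small subunit mean 3.44 ± 0.07, 3.62 ± 0.08, 3.48 ± 0.05 and 3.09 ± 0.10.

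As a share of all reads on genes, the members took 0.362%, 0.362% and 0.378% in Unt, 0.277%, 0.281% and 0.272% in DOX, 0.290%, 0.255% and 0.263% in D_DXZ and 0.262%, 0.311% and 0.330% in D_MgHCF. Every treated library was below every Unt library on this measure, also in DOX and D_DXZ, where the mean log2(FPKM + 1) over members was not lower. Counting error on 43567 or more reads is small beside these differences, and the spread between D_MgHCF libraries was the widest of the 4 groups.

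Members with a bacterial homologue and members found only in mitochondria were counted side by side. In DOX against Unt, 25 of 47 genes with a homologue were called higher and 12 lower, with a median log2 change of 0.41, and 8 of 29 mitochondria-specific genes were higher and 11 lower, with a median of 0.03. In D_MgHCF against Unt, 4 and 22 of the first set and 2 and 12 of the second were higher and lower. In D_MgHCF against DOX, 3 of the homologues were higher and 36 lower, and 7 and 13 of the mitochondria-specific genes. Of all genes tested, 18.6% were higher and 19.9% lower in DOX, and 24.3% and 15.7% in D_MgHCF against Unt. From DOX to D_MgHCF these shares were 31.4% and 20.1%. The difference between the sets was not tested.

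Members called higher in DOX were shorter than those called lower. The median gene length was 1680 bases in the 34 members called higher, 3291 bases in the 23 called lower and 2321.5 bases in the 20 not called. Over the 76 members with a mean of at least 1 FPKM, Spearman's rho between length and log2 change was -0.299 (Pearson's r -0.258), and over the 11517 expressed genes it was -0.273 (r -0.253). These are descriptions across genes, which share libraries and are not independent replicates. For D_MgHCF against Unt rho was -0.285 over members and -0.182 over expressed genes. The part of length in the results was not tested.

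Sequence shared with other genes limits what single values mean. For 29 of the 78 members (37.2%) a transcript of a gene elsewhere shares a stretch of at least 150 bases at 95% identity or more. A shared stretch need not be a copy of the gene. Mrps26 shares one with 92 other genes, Mrpl13 with 86, Mrps14 with 21 and Mrpl19 with 20. The share over all genes was not counted. Of the members with the largest rises in DOX, Mrps21 shares such a stretch with Gm6181 (97.3% over 264 bases), Mrpl42 with Gm6419 (96.3% over 429 bases) and Mrps33 with Gm5776 (99.7% over 321 bases). How the counting treated reads that fit both is not given in the sources used here, so the levels of these 3 genes are uncertain to that extent. In addition 13 members overlap another gene on the same strand and 35 on the opposite strand.

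The other nuclear genes of mitochondrial translation were counted from a list of initiation, elongation, release and recycling factors, assembly and rRNA-modifying factors and mitoribosomal proteins without an Mrp symbol, of which 49 were tested. In DOX 14 were higher and 25 lower (1 and 41 as TPM, 2 and 35 over summed reads), in D_DXZ 12 and 24, in D_MgHCF against Unt 4 and 27, and in D_MgHCF against DOX 16 and 20 (32 and 9 as TPM). Of all genes tested, 18.6% were higher and 19.9% lower in DOX (4.44% and 40.8% as TPM, 8.29% and 33.2% over summed reads). The shares were 15.9% and 18% in D_DXZ and 24.3% and 15.7% in D_MgHCF against Unt. In D_MgHCF against DOX they were 31.4% and 20.1% (53.9% and 6.75% as TPM). Gfm1, the elongation factor that translocates the ribosome, was at 14.5, 15.1 and 16.8 in Unt, 50.8, 61.8 and 68.9 in DOX, 46.8, 55.6 and 61.7 in D_DXZ and 17.1, 14.3 and 10.1 in D_MgHCF, and rose in DOX with no overlap (log2 change 1.89, SE 0.18, adjusted p = 2.32e-05, limma). Tufm, the factor that delivers aminoacyl-tRNA, was at 44.7, 52.7 and 57.1 in Unt, 114, 137 and 140 in DOX, 90.7, 89.8 and 107 in D_DXZ and 65.1, 67.5 and 70.6 in D_MgHCF, and rose as well (log2 change 1.32, adjusted p = 1.82e-05), although its change was -0.03 as TPM. Chchd1, a small subunit protein without an Mrp symbol, was among the largest rises in D_DXZ (log2 change 0.94, adjusted p = 0.000703), with a change of -0.23 as TPM.

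The largest falls among these factors in DOX were in 2 genes of large subunit biogenesis. Mrm3, a 16S rRNA methyltransferase, was at 8.52, 10 and 9.67 in Unt, 1.53, 0.644 and 0.447 in DOX, 3.14, 1.34 and 0.387 in D_DXZ and 3.39, 5.95 and 7.18 in D_MgHCF (log2 change -2.51, SE 0.38, adjusted p = 0.000339, limma). Ddx28, a helicase of large subunit assembly, was at 5.69, 6.24 and 7.4 in Unt, 1.05, 0.448 and 0.42 in DOX, 2.19, 0.945 and 0.563 in D_DXZ and 1.68, 2.08 and 3.33 in D_MgHCF (log2 change -2.20, SE 0.28, adjusted p = 0.000117). In both genes each DOX and D_DXZ library was below each Unt library. Another 16S rRNA methyltransferase gene, Mrm2, was higher in D_MgHCF than in DOX (log2 change 1.80, adjusted p = 0.000123). In D_MgHCF, Mtrf1l, a release factor, was at 14.6, 14.3 and 6.61 against 3.29, 3.26 and 2.82 in Unt and rose (log2 change 1.57, SE 0.25, adjusted p = 0.000949), and so did Mrm1 (log2 change 0.93, adjusted p = 0.0208), whose call was lost without replicate 1 or 2 of either group (adjusted p = 0.053 to 0.0753). Mrrf, the ribosome recycling factor, fell to 1.1, 0.656 and 1.29 from 4.21, 4.18 and 4.29 (log2 change -1.39, SE 0.16, adjusted p = 0.000149), and Rcc1l, an assembly factor, to 3.06, 2.16 and 2.12 from 7.41, 7.63 and 8.32 (log2 change -1.36, adjusted p = 4.23e-05). From DOX to D_MgHCF, Rcc1l (log2 change -2.28, adjusted p = 2.39e-06) and Gfm1 (log2 change -2.07, adjusted p = 1.21e-05) had the largest falls.

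The rRNAs that these proteins bind were measured in the same libraries, although poly(A) selection is designed for mRNA. The FPKM of the small subunit rRNA gene mt-Rnr1 was 168, 162 and 180 in Unt, 5514, 7272 and 7253 in DOX, 4696, 6741 and 6597 in D_DXZ and 1450, 721 and 256 in D_MgHCF. It was far higher in DOX and D_DXZ than in Unt (log2 change 5.28, SE 0.52, adjusted p = 2.8e-05 in DOX, limma), and its D_MgHCF libraries lay between Unt and DOX with replicate 3 the lowest (log2 change 1.92, adjusted p = 0.0158 against Unt, and 0.0511 without Unt replicate 2). The large subunit rRNA gene mt-Rnr2 was at 112, 103 and 101 in Unt, 3226, 4485 and 4291 in DOX, 2971, 4067 and 4160 in D_DXZ and 921, 570 and 209 in D_MgHCF (log2 change 5.22, SE 0.45, adjusted p = 1.53e-05 in DOX). Both rose relative to the median expressed gene under all 4 scalings, with log2 changes of 3.92 and 3.86 in DOX as TPM.

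**Figure D5:**
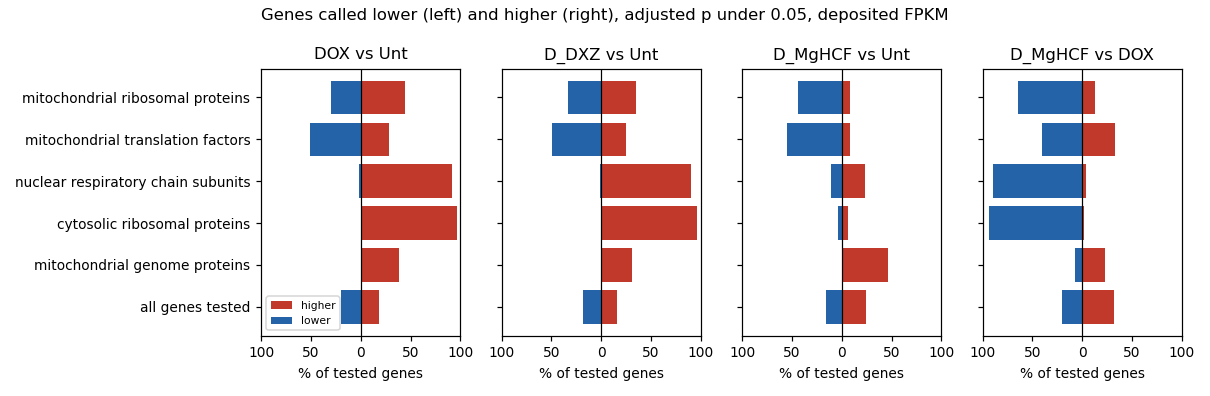
Share of tested genes called higher (bars to the right) and lower (bars to the left), in percent, for 6 gene lists in DOX against Unt, D_DXZ against Unt, D_MgHCF against Unt and D_MgHCF against DOX. In DOX, in the deposited scaling, the bars of the cytosolic ribosomal proteins (78 of 81 higher, 0 lower) and of the nuclear respiratory chain subunits (74 of 81 higher, 1 lower) lie almost wholly to the right, while those of the mitoribosomal genes (34 and 23 of 77) point both ways.

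The proteins of the cytosolic ribosome and of the respiratory chain were counted in the same fit. Of 81 cytosolic ribosomal protein genes tested, 78 were higher and 0 lower in DOX (limma), and of 81 nuclear genes for respiratory chain and ATP synthase subunits 74 were higher and 1 lower. As TPM these counts were 35 and 2, and 37 and 12, and after quantile normalisation the cytosolic ribosomal genes turned to 9 higher and 22 lower. All genes tested had shares of 18.6% higher and 19.9% lower in DOX, and 4.44% and 40.8% as TPM. In D_MgHCF against DOX, 76 of the cytosolic ribosomal and 73 of the respiratory chain genes were lower, with 57 and 39 as TPM and 17 and 33 after quantile normalisation. In D_MgHCF against Unt 5 cytosolic ribosomal genes were higher and 3 lower (4 and 18 as TPM), and the respiratory chain genes had 19 higher and 9 lower, where the mitoribosomal genes had 6 and 34. Of the 13 proteins encoded by the mitochondrial genome, 5 were higher and 0 lower in DOX and 6 and 0 in D_MgHCF against Unt, with the DOX counts turning to 1 and 7 as TPM. Relative to the median expressed gene in DOX, 30 of the cytosolic ribosomal genes were above and 0 below under all 4 scalings, with 51 changing side, and 61 of the respiratory chain genes were above and 1 below. The difference between these lists and the members was not tested.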

How the data were processed

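Poly(A) RNA of 12 libraries was sequenced in pairs of reads. The submitters' processing notes name the aligner HISAT2 2.0.5 and the mouse build GRCm38. The authors deposited FPKM per gene, which are used here. In each library 100% of the FPKM values multiplied by gene length were whole multiples of 1 step (tolerance 0.1), which gave the reads and showed that a scaling between libraries is contained in the deposited FPKM. Column names were matched to the labels, where the description of the nanocatalyst libraries reads D_MgPB. Columns of the table outside the 12 libraries were gene annotation.

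Genes above 0 in at least 3 libraries (25044) were tested on log2(FPKM + 1) with limma 3.58.1 in R 4.3.3, in 1 fit over the 4 groups with a trended prior and 6 contrasts, and called at a Benjamini-Hochberg adjusted p under 0.05. Fold changes on this scale understate those of low genes. Replicate numbers were not used as a block, since libraries with the same number did not deviate together in every pair of groups. Their r ran from -0.408 to 0.421, against -0.448 to 0.322 for different numbers. The highest values were those of DOX with D_DXZ (0.421, 0.0525 and 0.352 for replicates 1, 2 and 3). With a replicate block, D_DXZ against DOX still had 0 members called. The members and lists were chosen with earlier results of these data known. In each comparison with Unt and in D_MgHCF against DOX, the text names the 3 largest rises and falls without overlap, and in addition 16 members chosen by role, the 3 highest and 3 lowest in Unt and the leading translation factors. A planned count of members on opposite sides of Unt in DOX and D_MgHCF is not given, since these comparisons share the Unt libraries. The reading relative to the median expressed gene and a scaling to the median of genes with FPKM of at least 1 were added after the data were seen. Promoters were RefSeq (GRCm38.p6), annotation was GENCODE M21, which gave identical coordinates for 72 of the 78 members, and copies were searched with BLAST 2.17.0. The fit was tested on simulated data in which few genes changed, unlike here, so that test says nothing about the choice of scaling. Python 3.11.15 was used for annotation. Other settings are described in the closing section.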

Additional observations from a re-analysis of the deposited data

Results flagged for a closer look

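Annotated pseudogenes of the family, which are not among the members, also held signal. Mrpl48-ps had a mean of 8.63 FPKM in DOX (6.11 to 10.7) against 4.49 in Unt (4.19 to 4.72). For Mrpl23-ps1 the DOX mean was 3.86 FPKM (3.41 to 4.43) against 1.86 in Unt (1.23 to 2.54). Mrps36-ps1 was at 2.23 FPKM in DOX (1.78 to 2.54) against 1.16 (0.535 to 1.77), and Mrps36-ps2 at 1.89 (1.51 to 2.24) against 0.703 (0.397 to 0.9). In these 4 genes every DOX library lay above every Unt library, while Mrps36-ps3 was listed at 0 in all 12 libraries. The parent genes Mrpl48, Mrpl23 and Mrps36 were also called higher in DOX, and the copies are 98.1% (Mrpl48-ps), 100% (Mrpl23-ps1), 99.3% (Mrps36-ps1) and 99.0% (Mrps36-ps2) identical to them over 636, 540, 306 and 309 aligned bases. Whether the signal belongs to the pseudogenes or to reads of their parents was not tested.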

How the results depend on the processing

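Counts are given as higher and lower members. Scaling moved the splits most, and it also moved the shares of all genes tested, given above with each comparison. Over summed reads they were 10 and 44 (DOX against Unt), 8 and 46 (D_DXZ against Unt), 27 and 20 (D_MgHCF against DOX) and 26 and 18 (D_MgHCF against D_DXZ), and as TPM 4 and 56, 1 and 57, 32 and 10, and 34 and 9. Quantile normalisation called 17 higher in DOX and 16 in D_DXZ. With a 2-fold minimum added, the counts were 18 and 8, 9 and 7, 1 and 10 (D_MgHCF against Unt), 3 and 28, and 1 and 19. In the same order, the shares of all genes tested were 10.8% and 9.18%, 8.26% and 6.7%, 6.2% and 5.04%, 10.7% and 12.1%, and 9.42% and 10%. At an unadjusted p, D_DXZ against DOX gave 1 and 11 (1.3% and 14.3%, beside 4.56% and 4.97% of all genes tested). In D_MgHCF against D_DXZ a fit of these 2 groups called 6 higher, beside 17.3% of all genes tested. With the replicate block, that count was 7, beside 28.4% of all genes tested. Leaving out 1 library at a time gave 15 to 27 lower in DOX against Unt and 6 to 11 higher in D_MgHCF against D_DXZ (6 without replicate 2 of either group), and every other count stayed within 1.5 times its value. The shares of all genes tested ran from 17.4% to 23.6% in the first case and from 23.3% to 35.9% in the second. With voom on the recovered reads the counts were 33 and 20, 28 and 25, 6 and 34, 8 and 47, and 9 and 44. The matching shares of all genes tested were 21.1% and 19.7%, 17.7% and 18%, 28.5% and 16.7%, 29% and 20.4%, and 27.8% and 19.6%.

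The large minus small difference (log2) was small and changed sign in DOX and D_DXZ against Unt and in D_MgHCF against DOX. These 3 changes were -0.027, -0.0338 and -0.0518 over summed reads, -0.0185, -0.0243 and -0.0698 as TPM, and -0.178, -0.158 and 0.0612 after quantile normalisation, where D_MgHCF against Unt gave -0.117. With a pseudocount of 0.1 they were 0.0532, 0.0423 and -0.136. With the median over members they were 0.249, 0.163 and 0.180, and 0.428 for D_MgHCF against Unt. With Mrps18a and Mrps30 counted as large and Mrps36 left out, DOX gave -0.0052, D_DXZ -0.0331 and D_MgHCF against Unt -0.107.

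The named genes changed direction under scaling only, in comparisons with DOX or D_DXZ. In DOX over summed reads the log2 changes were -0.0988 (Mrps11), -0.793 (Mrpl40), -0.18 (Mrps12), -0.65 (Mrps7), -0.73 (Mrps5), -0.24 (Mrpl3), -0.84 (Mrpl12), -0.69 (Mrpl41), -0.86 (Mrps18c) and -0.57 (Mrps27). As TPM they were -0.51 (Mrps11), -0.137 (Mrps28), -0.248 (Mrpl54), -1.22 (Mrpl40), -0.0261 (Tufm), -0.59 (Mrps12), -1.07 (Mrps7), -1.19 (Mrps5), -0.66 (Mrpl3), -0.40 (Mrpl10), -1.27 (Mrpl12), -1.12 (Mrpl41), -1.31 (Mrps18c), -0.0692 (Mrps36), -1.0 (Mrps27) and -1.09 (Mrps34), and after quantile normalisation -0.116 (Mrpl54), -0.541 (Mrpl40), -0.0055 (Tufm), -0.72 (Mrpl12) and 0.0231 (Mrps30). In D_MgHCF against DOX they were, over summed reads, 0.45 (Mrps7), 0.0563 (Mrps5), 0.57 (Mrpl2), 0.14 (Mrpl12) and 0.53 (Mrps18a), as TPM 0.70 (Mrps7), 0.30 (Mrps5), 0.82 (Mrpl2), 0.39 (Mrpl12), 0.0074 (Mrpl58) and 0.81 (Mrps18a), and after quantile normalisation 0.13 (Mrps7) and 0.49 (Mrpl2). Chchd1 in D_DXZ was at -0.232 as TPM and -0.0075 after quantile normalisation.

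The members with the fewest reads were Mrpl53 (0), Mrps10 (3 over all libraries) and Mrps23 (13 to 69 in a library), and Mrpl44 had 38, 22 and 15 reads in DOX. Total RNA per cell was not measured, so no scaling can be preferred from these files.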
